A study of Arabidopsis thaliana with 12 samples.

Results

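Leaves and roots of the pdx1.3 knockout of Arabidopsis thaliana were compared with each other, to describe which genes and gene families marked each organ of the mutant. The samples were chosen by their titles, which gave 3 leaf arrays and 3 root arrays of the mutant out of 12 arrays in the series. All probe sets other than the manufacturer's controls were used, 22746 of 22810. A probe set is a group of short probes that reports 1 gene, or several near-identical genes, on the Affymetrix ATH1 array.

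The series held leaves and roots of the mutant and of its WT, Col-0, with 3 arrays for each organ of each genotype. Seedlings of both genotypes were 10 days old and had grown on diluted Murashige and Skoog medium with 1% sucrose and without vitamin B6. They received 16 h of light at 22 °C and 8 h of darkness at 18 °C, after which leaves and roots were collected separately. The labels name 1 knockout and no allele, so the mutant is 1 line without a rescued line beside it. The series design calls the arrays biological replicates, and their number, 3 per group, limits the precision of each value.

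PDX1.3 encodes a catalytic subunit of the enzyme complex that makes pyridoxal phosphate. This active vitamin B6 vitamer is a cofactor of aminotransferases and other enzymes of amino acid metabolism. Leaves of a seedling carry chloroplasts, a cuticle and stomata. Roots carry hairs, an endodermis with a lignified Casparian strip and suberin, and the transporters that take up mineral nutrients.

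Signals are linear intensities in arbitrary units, and every log2 difference below is pdx1.3 leaves minus pdx1.3 roots on the scale log2(signal + 16). A positive value means a higher signal in leaves. The constant of 16 makes the differences of dim genes smaller. A probe set was called at an adjusted p under 0.05 from limma with Benjamini-Hochberg adjustment over all 22746 probe sets. In a whole organ, fewer cells of a type and less RNA per cell cannot be told apart. Each probe set came with the authors' detection call of present, marginal or absent. For a gene that was absent on all 3 arrays of an organ only a bound is given, as a fold of at least N. It sets the brighter organ's mean log2 signal, here without the constant, against the mean log2 over the arrays of the dimmer organ of the gene's own signal or the lowest signal of any present probe set, whichever was higher. Each bound is therefore a ratio of geometric means, which can exceed the ratio of the arithmetic means of the printed signals. These lowest signals were between 1.31 and 2.71 on the 6 arrays.

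Replicate arrays correlated at r = 0.978 to 0.992 among mutant leaves and at 0.979 to 0.991 among mutant roots, across probe sets on the log2 scale. Leaf arrays correlated with root arrays at 0.665 to 0.698. Per the authors' quality values, 66.3 to 66.7% of probe sets were present on leaf arrays and 70.9 to 72.8% on root arrays, and the scaling factor was 0.43 to 0.507 for leaves and 0.32 to 0.37 for roots. The ratio of 3' to 5' probes for actin ran from 3.12 to 8.71 on leaf arrays and from 2.97 to 6.59 on root arrays, so it varied within each organ over a similar range. The part of these quality values in the organ differences was not tested.

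The targeted gene checked the labels first. PDX1.3 (AT5G01410) gave 40.5, 38.2 and 50.5 on the mutant leaf arrays and 116, 95.8 and 82.1 on the mutant root arrays. In WT it gave 591, 942 and 935 in leaves and 264, 282 and 282 in roots, so every mutant array lay below every WT array of the same organ. Titles, descriptions and table headers give the same genotypes. A separate genotype field of the labels has them exchanged on all 12 samples, and it was left aside. The residual PDX1.3 signal of the mutant was higher in roots (log2 difference -0.94, SE 0.18, adjusted p = 0.000517), while WT had the higher signal in leaves (log2 difference 1.49). The interaction, which is the organ difference in the mutant minus that in WT, was -2.43 (limma adjusted p = 0.000665).

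Further genes of vitamin B6 synthesis and salvage were called in both directions. PLR1, a pyridoxal reductase, gave 406, 434 and 443 in mutant leaves and 32.0, 41.7 and 37.1 in mutant roots (log2 difference 3.07). PDX3, an oxidase of the salvage route, and SOS4, a pyridoxal kinase of the same route, were also higher in leaves, with log2 differences of 1.66 and 0.71. PDX1.2, a non-catalytic relative of PDX1.3, gave 40.1, 24.1 and 20.4 in leaves and 136, 152 and 114 in roots (log2 difference -1.78). PDX2, the glutaminase subunit of the complex, was higher in roots as well (log2 difference -0.998). Their median difference of -0.12 was 0.01 after centring each array on its median. The salvage genes were thus the ones with higher leaf signals in the mutant. Of the de novo complex, PDX1.2, PDX2 and the residual PDX1.3 signal were higher in mutant roots, whereas WT had more PDX1.3 signal in leaves. PDX1.1, also listed for vitamin B6, has no probe set of its own here.

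Markers of the 2 organs' cell types mostly followed the labels. Among all measured genes 22.5% were higher in leaves and 33.0% in roots. All 6 measured mesophyll markers were higher in leaves, with summed signals of 31770, 27410 and 28670 on the leaf arrays against 587, 523 and 870 on the root arrays. All 7 guard cell and stomatal lineage markers were higher in leaves, and none of them was present on any root array, where their sums were 10.9, 11.8 and 11.1. The leaf arrays summed to 255, 224 and 202 for these 7 genes, of which SPCH and MUTE were present on no leaf array either. All 7 root hair markers were higher in roots (sums of 1809, 1664 and 1909 against 29.9, 34.7 and 39.3 in leaves), and 6 of them were present on no leaf array. The 7 suberin markers were all higher in roots too, and 7 of 9 endodermis markers were, while SCR and CASP5 were not called. Each of the 4 root cap markers was higher in roots, with sums of 78.5, 110 and 56.6 against 9.07, 9.91 and 10.8. Of 3 root stele markers only PHO1 was higher in roots, and SHR and SKOR were not called. Of 5 measured leaf polarity markers 4 were higher in leaves, and KAN1 was higher in roots. The phloem marker SUC2 was higher in leaves and APL was not called. The 3 shoot meristem markers STM, WUS and CLV3 were present on no mutant array, as were the 3 seed markers and the measured pollen marker. Of these, STM (log2 difference 1.11) and the seed marker CRA1 (0.22) were still called higher in leaves.

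Signals of photosynthesis genes in the root samples were low and differed between root arrays. Over 53 genes of light harvesting, the photosystems and the Calvin cycle, the summed signal was 198740, 185909 and 194025 on the leaf arrays and 4228, 3912 and 5890 on the root arrays. The root sums equal 2.19, 2.03 and 3.05% of the mean leaf sum. For 46 of the 53 genes the third root array was the highest of the roots. The leaf epidermis and wax markers summed to 713, 778 and 857 on the root arrays and were also highest on the third. Other leaf markers were not: the leaf polarity sums (151, 158 and 126) and trichome sums (9.48, 7.92 and 7.81) were lowest there. Guard cell and stomatal lineage sums (10.9, 11.8 and 11.1) were highest on the second. The part of leaf-type signal on the third root array in the organ differences was not tested. Without the third root array the differences of the photosynthesis lists were larger, as given with those lists.

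More probe sets were called than not, and more of them were higher in roots. Of 22746 probe sets, 5057 were called higher in mutant leaves (22.2%) and 7380 higher in mutant roots (32.4%), 12437 in all (54.7%). The 3 leaf signals and the 3 root signals did not overlap for 5706 probe sets with leaves higher (25.1%) and for 8058 with roots higher (35.4%). With a difference of at least 2-fold, 2901 were higher in leaves (12.8%) and 3529 in roots (15.5%). Leaves thus made up 40.7% of the calls under the authors' scaling. That share depended on the scaling, being 44.2% after quantile normalization and 51.3% after centring each array on its median, with 6724 calls for leaves and 6387 for roots. Centring moved the median difference of all probe sets by 0.12, from -0.04. The order of the calls of at least 2-fold was not stable either. Leaves had more of them after centring (3128 against 2963) and with a constant of 64 in place of 16 (1963 against 1895). Roots kept more after quantile normalization (3374 against 3005).

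The largest differences lay on the leaf side. A log2 difference of at least 2 was reached by 1531 called probe sets in leaves and by 1046 in roots, a difference of at least 4 by 358 and 186, and a difference of at least 6 by 43 and 10. This order held after quantile normalization (1558 and 1024 for a log2 difference of at least 2) and after centring (1638 and 924). With a constant of 1 in place of 16 the numbers were nearly equal, 2209 for leaves and 2180 for roots.

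**Figure D1:**
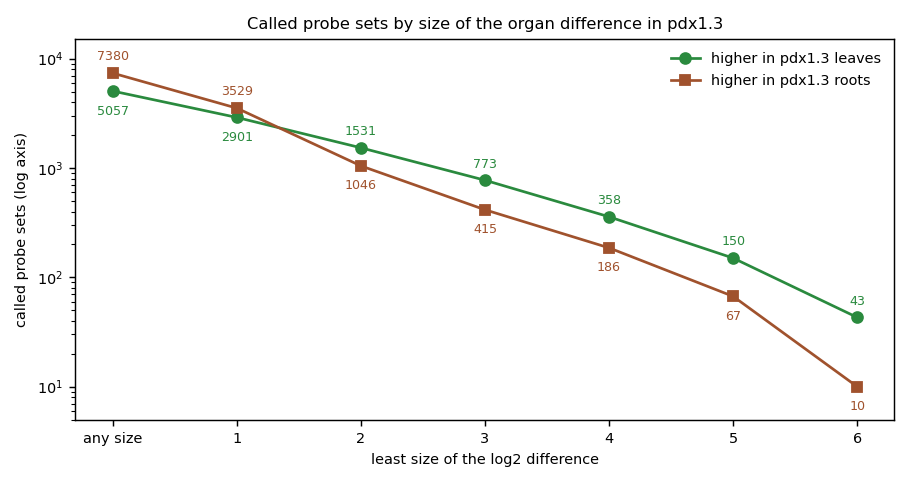
Number of called probe sets (log axis) against the least size of the log2 difference, for probe sets higher in pdx1.3 leaves (green circles) and in pdx1.3 roots (brown squares). Roots had more calls at any size (7380 against 5057) and at 1 or more (3529 against 2901), and leaves had more from 2 upward (1531 against 1046, and 43 against 10 at 6 or more).

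Detection calls gave another picture of the organs. Of all probe sets, 12774 were present on all 6 mutant arrays and 4664 on none. Those present on all 3 leaf arrays and absent on all 3 root arrays numbered 526 (2.31%), and the reverse held for 1333 (5.86%). Of these, 517 and 1218 were also called in the fit. More genes were therefore detected in mutant roots alone than in mutant leaves alone, although the largest differences were those of leaf genes.

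The genes with the largest leaf signals relative to roots encode enzymes of carbon metabolism and proteins of the thylakoid. CA1, a carbonic anhydrase of the chloroplast, gave 5149, 4250 and 4279 in leaves and 13.5, 2.02 and 12.4 in roots (log2 difference 7.53, SE 0.22, adjusted p = 3.23e-11). CA2, another carbonic anhydrase, gave 5400, 3930 and 4200 against 14.1, 6.82 and 17.6 (log2 difference 7.30). The plastid aldolase FBA1 gave 3955, 3228 and 3470 against 8.70, 3.41 and 8.25 (log2 difference 7.29). For all 3 genes the lowest leaf array was more than 100-fold above the highest root array.

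The aldolase FBA5 was absent on all root arrays. It gave 3193, 2189 and 2421 in leaves and 0.616, 0.262 and 1.93 in roots, so its leaf signal was at least 1466-fold higher. Phosphoribulokinase (PRK), which makes the acceptor of carbon dioxide, gave 4655, 4013 and 4162 in leaves and 13.1, 10.9 and 30.7 in roots (log2 difference 7.01). GAPA2 and GAPB, subunits of the plastid glyceraldehyde phosphate dehydrogenase, had log2 differences of 6.97 and 6.78, and sedoheptulose bisphosphatase (SBPASE) had 6.69. FBA2, HPR and PMDH2, the last 2 being peroxisomal hydroxypyruvate reductase and malate dehydrogenase, had 6.94, 6.93 and 6.73. The remaining members of the 15 largest were the photosystem genes PSAH2 (6.67), PSBTN (6.65) and PSAD2 (6.59) and the antenna gene LHCB2.3 (6.55).

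Other genes present on all leaf arrays and absent on all root arrays covered further roles. PIL6, a phytochrome-interacting transcription factor, gave 1038, 929 and 1241 in leaves and 0.453, 0.956 and 1.66 in roots, at least 606-fold higher in leaves. TL29, a protein of the thylakoid lumen, was at least 546-fold higher and NEET, an iron-sulphur protein, at least 504-fold. THI2.2, a thionin, XTH6, a xyloglucan endotransglucosylase of the cell wall, and AT2G10940, a protein of the lipid transfer type, were at least 503-fold, 500.5-fold and 499-fold higher. The antenna gene LHCA6 gave 1831, 1612 and 1870 in leaves and 0.971, 3.67 and 7.21 in roots, at least 482-fold higher in leaves. None of these genes had a signal above 10 on any root array.

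**Figure D2:**
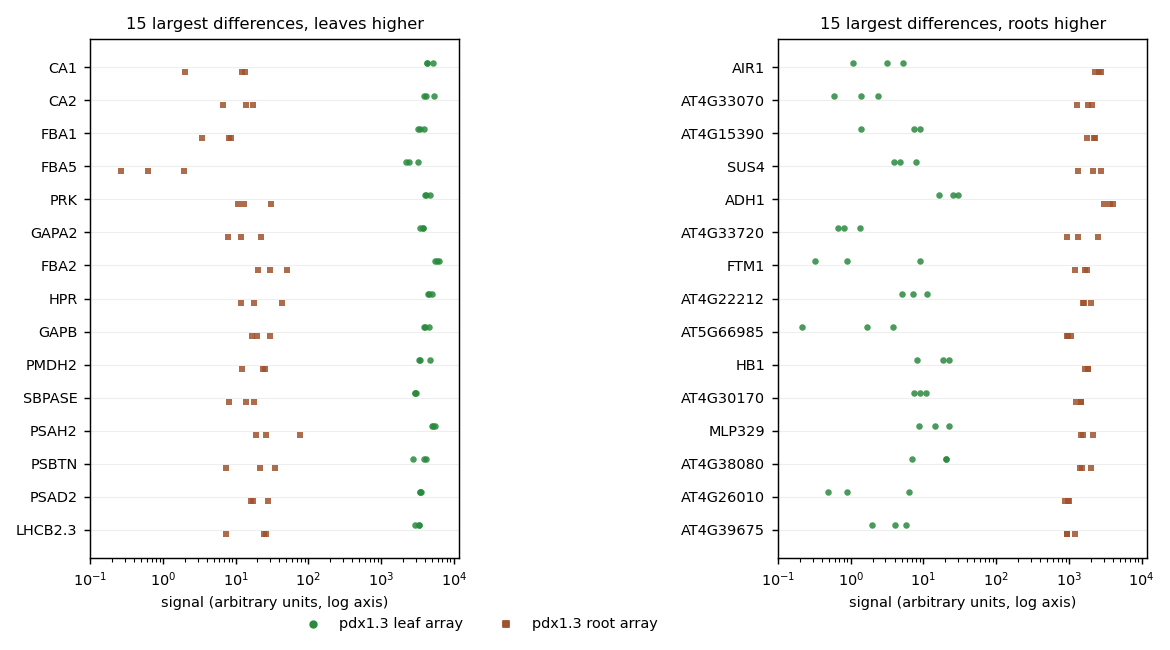
Signals (arbitrary units, log axis) on each of the 3 pdx1.3 leaf arrays (green circles) and the 3 pdx1.3 root arrays (brown squares) for the 15 largest differences in each direction. The arrays of the organs lie more than 10-fold apart for every gene, with leaf signals from 2189 to 6202 in the left panel and root signals from 882 to 3989 in the right panel.

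All measured members of the 3 photosynthesis lists were higher in leaves. Light harvesting had 13 of 13 measured genes higher in leaves with a median log2 difference of 5.15, photosystem subunits and electron carriers 27 of 27 with 5.70, and the Calvin cycle 13 of 13 with 5.83. For all 21420 measured genes the share was 22.5% and the median -0.05. Without the third root array the medians were 5.40, 5.93 and 6.07. The antenna gene LHCB6 gave 5702, 4609 and 5066 in leaves and 40.8, 52.7 and 71.8 in roots (log2 difference 6.19), and LHCB4.2 had 6.27. PSBQ2 and PSBO2, subunits of the oxygen-evolving complex, had 6.24 and 6.31. PSBO2 varied among the root arrays, at 18.9, 10.6 and 56.9. The lowest member of the antenna list was LHCB4.3, at 3.13.

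Photorespiration recovers carbon from the oxygenation product of Rubisco and uses several enzymes that need pyridoxal phosphate. It was higher in leaves for 12 of 12 measured genes (median log2 difference 4.43), against 22.5% of all measured genes. AGT, a peroxisomal aminotransferase of this route that binds the cofactor, gave 4150, 3195 and 3328 in leaves and 21.1, 13.6 and 57.2 in roots (log2 difference 6.36). GDCH, a subunit of glycine decarboxylase, gave 1514, 1857 and 1905 against 8.55, 5.88 and 15.8 (log2 difference 6.10). PLGG1, the plastid exporter of glycolate and glycerate, was present on no root array and had a log2 difference of 5.68. GGT2 had the lowest, 2.21. For AGT, GDCH and PLGG1 every leaf array exceeded every root array.

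Chlorophyll synthesis had 16 of 17 measured genes higher in leaves (94.1%, against 22.5% of all measured genes), with a median log2 difference of 3.83. GUN4, which activates the magnesium chelatase, gave 2016, 1472 and 1622 in leaves and 0.289, 2.40 and 11.0 in roots (log2 difference 6.41). The protochlorophyllide reductase PORC was present on no root array (log2 difference 5.77), and GUN5 and CRD1, a chelatase subunit and a cyclase subunit, had 5.29 and 5.15. HEMA2 was not called, with 71.1, 52.9 and 53.3 in leaves and 49.8, 43.8 and 29.4 in roots (log2 difference 0.41, adjusted p = 0.158), although it was called after centring each array on its median (adjusted p = 0.0398). HEMA1, which encodes the same enzyme, glutamyl-tRNA reductase, gave 1216, 1033 and 857 in leaves and 90.2, 95.7 and 66.0 in roots (log2 difference 3.39).

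Genes of the plastid genome were lower in roots without exception among the called ones. Of 71 probe sets named for plastid-encoded genes, 65 were higher in leaves, none was higher in roots and 6 were not called (median log2 difference 2.59). PSAB and PSBC, core proteins of the photosystems, had log2 differences of 5.70 and 5.40. PSBA, the reaction centre protein D1, gave 305, 262 and 250 in leaves and 9.78, 6.62 and 7.63 in roots, where it was absent on all arrays. Its leaf signal was at least 34.3-fold higher. The nuclear genes for plastid sigma factors and proteins associated with the plastid RNA polymerase were higher in leaves for 22 of 24, with a median of 2.09. PTAC16 had 6.26, and the sigma factor genes SIGA and SIG4 had 3.86 and 3.64. For all measured genes the shares were 22.5% in leaves and 33.0% in roots. Mitochondria-encoded genes differed less: 14 of 43 were higher in leaves (32.6%), 1 in roots (2.3%) and 28 were not called. Their median was 0.13, and 23 were present on no mutant array. The number of these calls for leaves was 22 when arrays were centred on their median and 8 with the filter on present calls. PSAB, PSBC, PSBA, PTAC16, SIGA and SIG4 were chosen for mention after their values were seen.

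Genes of the leaf surface were mostly higher in leaves. Of 14 measured genes of epidermis, wax and trichomes, 12 were higher in leaves (85.7%, against 22.5% of all measured genes) and 2 in roots. Their median log2 difference was 2.45. LTP1, a lipid transfer protein, gave 3127, 3165 and 3095 in leaves and 93.7, 81.6 and 112 in roots (log2 difference 4.83). CER6, a condensing enzyme of wax synthesis, had 4.53, the wax exporter CER5 had 3.60 and the epidermal factor ATML1 had 3.01. CER4, an alcohol-forming reductase, went the other way with 12.0, 16.9 and 14.0 in leaves and 66.1, 48.2 and 53.2 in roots (log2 difference -1.24). LTP2 did so as well, with 186, 238 and 226 against 667, 810 and 700 (log2 difference -1.67).

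Genes of the stomatal lineage, some of which act only in dividing cells of the young epidermis, separated the organs as well. All 7 genes were higher in leaves (median log2 difference 1.55), and 4 were present on all leaf arrays and absent on all root arrays. For all probe sets the shares were 22.2% and 2.31%. KAT1, a potassium channel of guard cells, gave 76.3, 49.2 and 58.1 in leaves and was at least 34.2-fold higher than in roots. FAMA, which directs the last step of guard cell formation, gave 66.5, 54.6 and 40.6 and was at least 19.5-fold higher. The receptor gene TMM was at least 15.0-fold higher.

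Regulators of leaf identity and polarity were split. Of 16 measured genes, 8 were higher in leaves (50.0%), 3 in roots (18.8%) and 5 were not called (median log2 difference 0.74). Among all measured genes the shares were 22.5% and 33.0%. GLK1 and GLK2, factors for chloroplast development, had 3.97 and 4.06, and GLK1 was absent on all root arrays. FIL, a YABBY factor of the lower leaf side, gave 200, 214 and 176 in leaves and was at least 112-fold higher than in roots. YAB3, a relative of it, had a log2 difference of 2.53. The 3 genes with higher signals in roots were REV (-0.70), KAN1 (-0.66) and KNAT1 (-0.61). KAN1 overlapped between organs, at 31.9, 15.2 and 14.4 in leaves and 42.6, 48.5 and 31.3 in roots.

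The 15 largest root differences belonged to genes of varied annotation. AIR1, annotated as a lipid-binding protein, gave 3.13, 1.09 and 5.22 in leaves and 2609, 2321 and 2765 in roots (log2 difference -7.08, adjusted p = 3.02e-11). AT4G33070, a pyruvate decarboxylase, gave 1.36, 2.35 and 0.596 in leaves and 1862, 2075 and 1311 in roots, so it was at least 791-fold higher in roots. ADH1, the alcohol dehydrogenase that follows it in fermentation, gave 16.3, 30.0 and 25.4 in leaves and 3650, 3989 and 3002 in roots (log2 difference -6.49). Leaf signals of these 3 genes stayed at or below 30.0, and root signals were above 1300 on every array.

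SUS4, a sucrose synthase, gave 3.98, 4.77 and 7.84 in leaves and 2122, 2778 and 1348 in roots (log2 difference -6.55). HB1, a non-symbiotic haemoglobin, gave 8.17, 22.2 and 18.9 against 1821, 1692 and 1826 (log2 difference -5.82). AT4G15390, annotated as a transferase, was at least 443-fold higher in roots, and AT4G33720, a pathogenesis-related protein, at least 823-fold. AT4G33720 varied among the root arrays, at 1349, 2518 and 951. FTM1, an acyl carrier protein desaturase, was at least 484-fold higher and AT5G66985, an unknown protein, at least 384-fold. The defensin-like AT4G22212 had a log2 difference of -6.20, MLP329, a major latex protein, -5.80, the hydroxyproline-rich AT4G38080 -5.73 and AT4G39675 -5.71. AT5G04120, of the phosphoglycerate mutase family, was at least 398-fold higher in roots.

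Class III peroxidases, secreted enzymes that cross-link lignin and other wall polymers, supplied AT4G30170 and AT4G26010 to the 15 largest root differences. AT4G30170 gave 7.33, 8.92 and 10.9 in leaves and 1447, 1252 and 1484 in roots (log2 difference -5.81). AT4G26010 was at least 317-fold higher in roots, AT3G01190 at least 459-fold and RHS19, a gene of root hairs, at least 410-fold. Of 63 measured members, 38 were higher in roots (60.3%, against 33.0% of all measured genes), 4 in leaves and 21 were not called. The median log2 difference was -1.51, and 21 members were present on all root arrays and absent on all leaf arrays, as were 5.86% of all probe sets. Their summed signal was 19390 to 20110 on root arrays and 3433 to 4296 on leaf arrays. The largest member in the other direction was AT5G58390, at 2.23, followed by AT1G71695 at 1.85, both chosen for mention after their values were seen.

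Genes of root hairs and of the endodermis were among the clearest root markers. Of 12 measured root hair genes 11 were higher in roots (91.7%, against 33.0% of all measured genes) and 1 was not called. Their median log2 difference was -2.61. PRP3, a proline-rich wall protein, gave 1.25, 9.66 and 11.9 in leaves and 1064, 954 and 1264 in roots (log2 difference -5.58). EXPA18, an expansin, was at least 32.1-fold higher in roots, and RHD2, the oxidase that drives hair elongation, at least 39.0-fold. PRP1 had a log2 difference of -3.37. GL2, which represses hair fate, was the gene not called, with a log2 difference of 0.01.

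Of 17 Casparian strip and suberin genes, 15 were higher in roots (88.2%, against 33.0% of all measured genes). Of the others 1 was higher in leaves and 1 was not called (median log2 difference -2.82). CASP1, which scaffolds the strip, gave 9.41, 11.3 and 11.5 in leaves and 906, 897 and 931 in roots, at least 85.3-fold higher in roots. CASP2 was at least 168-fold higher, and CYP86A1, a hydroxylase of suberin monomers, at least 125-fold. ESB1, a dirigent protein of the strip, was present on all leaf arrays at 18.4, 18.6 and 18.4 and gave 650, 510 and 604 in roots (log2 difference -4.12). KCS20, a condensing enzyme of very long chain fatty acids, was higher in leaves, at 418, 438 and 352 against 148, 162 and 185 (log2 difference 1.21). CASP5 was not called, at -0.31.

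Regulators of the root tip were mostly higher in roots. Of 14 measured genes 12 were higher in roots (85.7%, against 33.0% of all measured genes) and 2 were not called (median log2 difference -0.95). Of the 14, 8 were present on all root and absent on all leaf arrays, as were 5.86% of all probe sets. MYB36, which switches on the Casparian strip genes, gave 105, 88.2 and 122 in roots and was at least 58.3-fold higher there. MGP, a zinc finger factor of the ground tissue, was at least 26.9-fold higher. UPB1 gave 145, 111 and 251 in roots against 25.6, 48.8 and 57.2 in leaves (log2 difference -1.60), and SMB, a root cap factor, had -1.53. SHR and SCR, which pattern the ground tissue, were not called, with log2 differences of -0.27 and 0.36. All 7 MADS-box genes listed for the root were higher in roots (median -1.75). Among them ANR1, AGL21 and AGL42 were at least 39.6-fold, 31.2-fold and 14.8-fold higher, and AGL12 had a log2 difference of -1.75.

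Nutrient uptake genes were higher in roots for 13 of 17 measured members (76.5%, against 33.0% of all measured genes). The other 4 were not called, and the median log2 difference was -1.36. SULTR1;2, a sulphate transporter of the root surface, gave 69.9, 31.4 and 66.0 in leaves and 787, 855 and 871 in roots (log2 difference -3.62). SULTR1;1 was at least 33.0-fold higher in roots and IRT2, an iron transporter, at least 45.0-fold. NIP5;1, a boric acid channel, had -2.67. The ammonium transporter genes AMT1;1 (-0.04) and AMT1;2 (0.08) were among those not called.

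Genes of long-distance transport went to either organ. PHO1, which loads phosphate into the xylem, gave 31.5, 20.4 and 24.0 in leaves and 587, 738 and 365 in roots (log2 difference -3.77). NRT1.5, which does so for nitrate, had -3.48, and HKT1, a sodium transporter, was at least 2.51-fold higher in roots (adjusted p = 0.0128, and 0.073 with a constant of 1). SUC2, the sucrose carrier of the phloem, was higher in leaves, at 503, 493 and 468 against 42.4, 61.0 and 52.9 (log2 difference 2.90).

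Aquaporins, the channels for water and small solutes, had members in both organs. Of 16 measured, 6 were higher in leaves (37.5%), 5 in roots (31.3%) and 5 were not called. Among all measured genes the shares were 22.5% and 33.0%, so the root share lay near that of all genes. PIP2;6 gave 1224, 1393 and 1515 in leaves and 29.6, 23.4 and 55.2 in roots (log2 difference 4.78). In roots NIP1;1 was at least 82.3-fold higher, TIP4;1 at least 30.3-fold, PIP2;4 at least 20.7-fold and TIP2;3 at least 11.0-fold. TIP1;1 was present on all arrays, at 948, 781 and 908 in leaves and 1616, 1510 and 1672 in roots (log2 difference -0.85).

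The clustered genes for root triterpenes, small defence compounds made from an oxidised squalene, were higher in roots for 9 of 9 members (median log2 difference -4.28). Among all measured genes the share was 33.0%. THAS1, which makes the thalianol skeleton, gave 6.17, 2.65 and 8.41 in leaves and 1352, 1297 and 756 in roots (log2 difference -5.69). THAH, its hydroxylase, was at least 136-fold higher in roots, and THAD, a desaturase, had -5.12. MRN1, the marneral synthase, gave 0.990, 0.669 and 0.582 in leaves and 525, 459 and 253 in roots, at least 220-fold higher in roots. The third root array was the lowest of the roots for each of these 4 genes.

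ER bodies are compartments of the Brassicaceae that store beta-glucosidases. Of the 5 measured genes, 4 were higher in roots (80.0%, against 33.0% of all measured genes). NAI2, which is needed to form the bodies, gave 202, 198 and 157 in leaves and 1460, 1458 and 1249 in roots (log2 difference -2.81). PYK10, the main root beta-glucosidase, had -2.02 and the lectin gene JAL22 had -1.47. BGLU18, a beta-glucosidase of leaf ER bodies, was the exception with 900, 747 and 782 in leaves and 18.6, 9.99 and 16.0 in roots (log2 difference 4.75).

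Of 22 measured genes of glucosinolate synthesis, 6 were higher in leaves (27.3%), 8 in roots (36.4%) and 8 were not called. These shares lay near the 22.5% and 33.0% of all measured genes. CYP81F4, which modifies indole glucosinolates, gave 26.4, 32.4 and 39.7 in leaves and 1173, 1071 and 1682 in roots (log2 difference -4.74). MAM3 and MAM1 elongate the side chain of methionine, and they went opposite ways. MAM3 gave 32.6, 30.5 and 43.4 in leaves against 696, 785 and 742 in roots (log2 difference -3.88), and MAM1 gave 684, 464 and 474 against 99.8, 114 and 144 (log2 difference 2.03). CYP79B2, the first enzyme of the indole branch, had -1.57 (adjusted p = 0.0145), a call that was lost without the third root array (adjusted p = 0.0563). MYB29, a regulator of the aliphatic branch, was higher in leaves (log2 difference 1.52) and so was FMOGSOX1 (1.18). CYP81F2 overlapped between organs, at 49.6, 281 and 156 in leaves and 28.2, 16.0 and 101 in roots (adjusted p = 0.0317). Its call was lost in the fit of the 6 mutant arrays alone (adjusted p = 0.0825). The calls of MYB51 and MYB76 were also lost without 1 array.

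**Figure D3:**
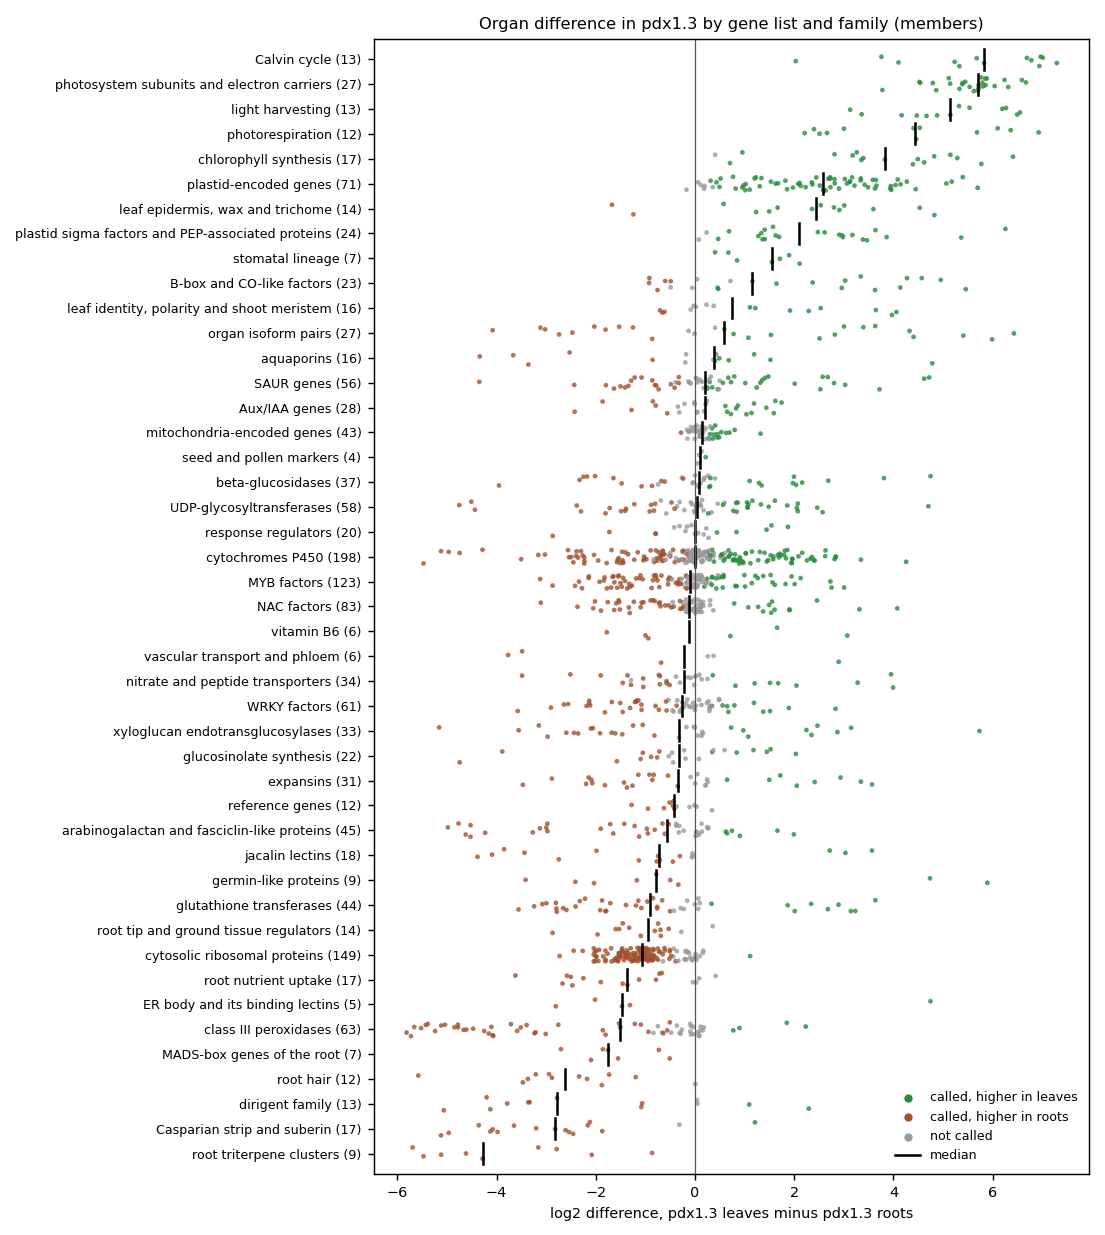
Log2 difference, pdx1.3 leaves minus pdx1.3 roots, of each measured member of 45 gene lists and families (points, spread vertically for sight), with the number of members in brackets and the median as a black bar. Green points were called higher in leaves, brown points higher in roots and grey points were not called. The medians run from -4.28 for the root triterpene clusters to 5.83 for the Calvin cycle.

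Several other families were skewed to roots, beside shares of 33.0% in roots and 22.5% in leaves for all measured genes. Members named for these families were chosen after their values were seen, as the extremes of their family. Dirigent proteins, which guide lignan and lignin coupling, were higher in roots for 9 of 13 (median log2 difference -2.78). AT4G13580 was the lowest of them (-5.06) and AT1G65870 the highest (2.29). Glutathione transferases were higher in roots for 27 of 44 and in leaves for 9 (median -0.90). GSTU8 had -3.56 and GSTU18 3.63. Arabinogalactan and fasciclin-like proteins of the cell surface were higher in roots for 23 of 45 and in leaves for 6. AGP13 had -4.98 and AGP22 -4.76, and the highest log2 difference in this family was 1.99. Jacalin lectins were higher in roots for 12 of 18, led by AT2G25980 (-4.38) and JAL33 (-3.44), and in leaves for 3. Their highest log2 difference was 3.57. Germin-like proteins were higher in roots for 7 of 9, yet GER1 (5.89) and GER3 (4.74) were far higher in leaves.

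Wall-loosening families had strong members on both sides, beside shares of 22.5% in leaves and 33.0% in roots for all measured genes. Expansins were higher in roots for 16 of 31 and in leaves for 8, with EXPA18 at -3.47 and EXPA7 at -2.88 against EXPA5 at 3.57 and EXPA8 at 3.34. Xyloglucan endotransglucosylases were higher in roots for 16 of 33 and in leaves for 9, and XTH14 (-5.16) and XTH6 (5.73) were the extremes. The medians of these families, -0.35 and -0.32, lay closer to that of all genes than their extreme members did.

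Large enzyme and transporter families had members in both organs, beside shares of 22.5% in leaves and 33.0% in roots for all measured genes. Of 198 cytochromes P450, 63 were higher in leaves (31.8%) and 62 in roots (31.3%), and the median was near 0 with a sign that turned positive after quantile normalization (0.01) and after centring (0.12). THAH (-5.47) and CYP71B4 (4.26) were the extremes of this family. Of 58 UDP-glycosyltransferases 21 were higher in leaves (36.2%) and 17 in roots (29.3%), with UGT72E2 at -4.75 and UGT88A1 at 4.70. Beta-glucosidases had 13 of 37 higher in leaves and 12 in roots. Nitrate and peptide transporters had 9 of 34 higher in leaves (26.5%) and 14 in roots (41.2%), near the shares of all genes, among them AT3G21670 at 3.99 and NRT1.9 at -2.51.

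Among all measured genes 22.5% were higher in leaves and 33.0% in roots, and the WRKY, NAC and MYB families lay near these shares, with 39.3, 37.4 and 39.8% of members higher in roots and 16.4, 15.7 and 24.4% in leaves. WRKY factors, known from defence, were higher in roots for 24 of 61 and in leaves for 10, with WRKY65 at -3.57 and WRKY70 at 2.83. NAC factors had 31 of 83 higher in roots and 13 in leaves, with NAC084 at -3.11 and NAP, a senescence factor, at 4.08. MYB factors had 49 of 123 higher in roots and 30 in leaves, with MYB93 at -3.12 and MYB16, a factor of the epidermis, at 3.01. In these families the NAC and MYB medians of -0.11 and -0.10 turned to 0.01 and 0.02 after centring each array on its median. B-box and CO-like factors, many of which act in light signalling, were higher in leaves for 14 of 23 (60.9%, median 1.16). COL2 (5.46), COL1 (4.95) and BBX14 (4.57) led them, and BZS1 was the lowest (-0.93).

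Families of the auxin and cytokinin responses had members in both organs. SAUR genes were higher in leaves for 23 of 56 (41.1%) and in roots for 18 (32.1%). The root share lay near the 33.0% of all measured genes. Of the SAUR genes, 12 were present on all leaf arrays and absent on all root arrays, as were 2.31% of all probe sets. AT4G38840 (4.72) and AT2G21210 (4.62) were the highest and AT4G31320 (-4.35) the lowest. Aux/IAA genes, repressors of the auxin response, were higher in leaves for 12 of 28 (42.9%) and in roots for 6 (21.4%), with SHY2 at 1.75 and IAA28 at -2.43. Response regulators of cytokinin signalling had 5 of 20 higher in leaves (25%) and 4 in roots (20%), against 22.5% and 33.0% of all measured genes, with ARR7 at 1.87 and ARR3 at -2.87.

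Cytosolic ribosomal protein genes were higher in roots almost as a block. Of 149 measured, 127 were higher in roots (85.2%, against 33.0% of all measured genes), 1 in leaves and 21 were not called. The median log2 difference was -1.08. The gene higher in leaves was AT1G80800 (1.11). After centring each array on its median, 122 of them were higher in roots, and the median was -0.96. Common reference genes also leaned to roots, with 7 of 12 higher there (58.3%), none higher in leaves and a median of -0.43. But after centring each array on its median, 4 of them were higher in roots and 1 in leaves. ACT8 gave 609, 342 and 378 in leaves and 1153, 1090 and 957 in roots (log2 difference -1.28). GAPC1 had -0.95, UBC21 -0.63 and TIP41 -0.51. ACT2 was not called, at 2323, 1815 and 1804 in leaves and 2094, 2387 and 1916 in roots, and PP2AA3 and SAND had log2 differences of 0.03 and -0.01. The signs of ACT2 and SAND turned positive after centring (0.01 and 0.11).

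Enzymes encoded by several genes showed members that marked opposite organs. Of 27 such genes, 14 were higher in leaves (51.9%), 10 in roots (37.0%) and 3 were not called. Among all measured genes the shares were 22.5% and 33.0%, so the root share lay near that of all genes. Ferredoxins carry electrons from photosystem I in leaves and from NADPH in roots. FD2 gave 3797, 3778 and 3812 in leaves and 149, 140 and 253 in roots (log2 difference 4.32), and FD1 had 3.63. FD3 gave 101, 126 and 141 in leaves and 834, 833 and 1062 in roots (log2 difference -2.74). The reductases that pass electrons between ferredoxin and NADPH followed the same division. LFNR2 was at least 351-fold higher in leaves and LFNR1 had 5.41, while RFNR1 had -1.53 and RFNR2 gave 87.0, 54.5 and 49.4 in leaves and 598, 623 and 630 in roots (log2 difference -3.02).

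Nitrogen assimilation was divided likewise. The glutamate synthase gene GLU1 gave 1658, 2103 and 2304 in leaves and was at least 285-fold higher than in roots. GLU2 had 53.2, 47.1 and 50.5 in leaves and 265, 252 and 245 in roots (log2 difference -2.03), and the NADH-dependent GLT1 had -1.25. The plastid glutamine synthetase GLN2 had 2.82 and the cytosolic GLN1;2 had 0.59. Cytosolic GLN1;1 gave 124, 134 and 152 in leaves and 1506, 1287 and 1142 in roots (log2 difference -3.11). Nitrate reductase NIA2 had 0.78, and NIA1 was not called, at 323, 612 and 514 in leaves and 475, 510 and 429 in roots.

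The remaining isoforms belong to carbon metabolism, peroxide removal and proton pumping. SHM1, the serine hydroxymethyltransferase of photorespiration and a pyridoxal phosphate enzyme, gave 3632, 3201 and 3154 in leaves and 165, 129 and 133 in roots (log2 difference 4.41), and SHM2 had -0.86. Phosphoenolpyruvate carboxylase PPC2 had 3.00, while PPC1 had -1.80 and PPC3 gave 32.7, 14.0 and 37.5 in leaves and 779, 594 and 761 in roots (log2 difference -4.08). The catalase genes CAT1, CAT2 and CAT3 were all higher in leaves, at 1.08, 2.51 and 1.53. The plasma membrane proton pump AHA2 was higher in roots (-2.47) and AHA1 was not called (-0.13).

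**Figure D4:**
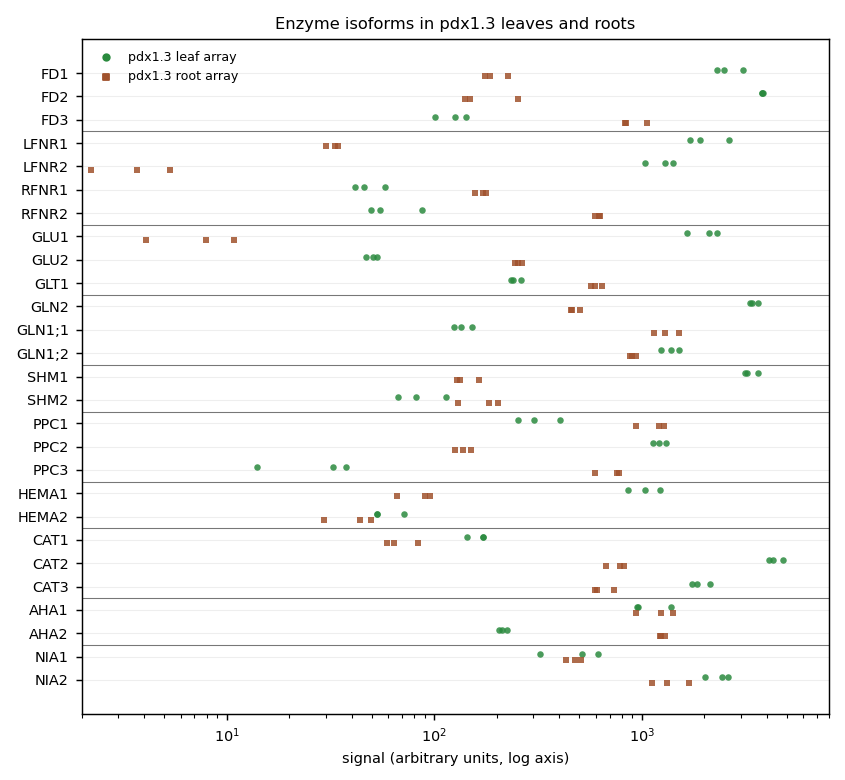
Signals (arbitrary units, log axis) of 27 genes for 10 groups of enzyme isoforms on the 3 pdx1.3 leaf arrays (green circles) and the 3 pdx1.3 root arrays (brown squares), with lines between the groups. FD3, RFNR2, GLN1;1 and PPC3 lie higher in roots, and FD2, LFNR2, GLU1 and SHM1 higher in leaves. Signals of different genes come from different probes and are not comparable with each other.

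The organ difference of WT, from other arrays, was set beside that of the mutant. In WT 4750 probe sets were called higher in leaves (20.9%) and 7203 higher in roots (31.7%). Of the 12437 probe sets called in the mutant, 10142 were called in the same direction in WT (81.5%) and 32 in the opposite direction. Across probe sets the 2 organ differences correlated at r = 0.956, given as a description, since genes are not independent replicates.

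The interaction was called for 425 probe sets (1.87%). The leaf minus root difference was higher in the mutant for 257 of them and lower for 168, and for 26 both organ differences were called with opposite signs. Another 111 had an organ difference called in the mutant only and 48 in WT only. This number depended on single arrays, at 137 to 554 when 1 array was left out, and it was lowest without the second WT root array. The photosynthesis lists had larger medians in the mutant than in WT (5.15 against 4.55 for light harvesting, 5.70 against 5.17 for the photosystems). The interaction was called for 1 antenna gene and for no photosystem gene. That antenna gene, LHCB4.3, went against the medians, with an organ difference of 3.13 in the mutant and 4.13 in WT (interaction -1.002, adjusted p = 0.041).

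**Figure D5:**
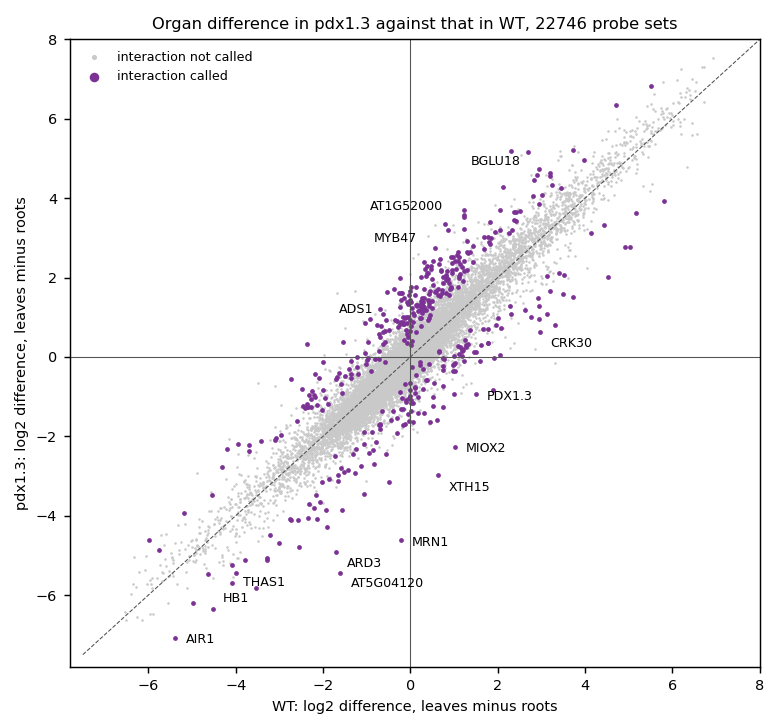
Log2 difference, leaves minus roots, in pdx1.3 (vertical axis) against WT (horizontal axis) for 22746 probe sets, with the 425 whose interaction was called in purple and a dashed line of equality. MRN1, ARD3 and AT5G04120 lie far below the line and BGLU18, MYB47 and AT1G52000 above it. MIOX2, XTH15 and PDX1.3 had a positive difference in WT and a negative one in pdx1.3, although the WT signals of XTH15 overlapped between organs.

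The interaction was called for 7 of 9 root triterpene genes, against 1.87% of all probe sets. Their median organ difference was -4.28 in the mutant and -1.91 in WT. MRN1 was absent on all WT root arrays, at 1.80, 4.29 and 4.46, against 525, 459 and 253 in mutant roots, and its interaction was -4.41. CYP705A12 and CYP71A16, P450 genes of the marneral cluster, had interactions of -2.67 and -2.37. THAS1, THAD and THAH had -1.60, -1.33 and -0.83. With a constant of 1 those of THAS1 and THAD were not called (adjusted p = 0.731 and 0.945) and that of THAH was 1.102 (adjusted p = 0.223), so the calls of the thalianol genes depended on the constant. PEN1 and BARS1, 2 other synthases, had 0.09 and 0.17 and were not called.

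For some genes the organ with the higher mean signal differed between the 2 genotypes. MIOX2, a myo-inositol oxygenase, gave 31.2, 58.2 and 48.2 in mutant leaves and 266, 308 and 259 in mutant roots, and in WT 734, 742 and 504 in leaves and 333, 347 and 260 in roots. XTH15, a wall enzyme, gave 16.8, 15.8 and 22.7 in mutant leaves and 257, 264 and 239 in mutant roots, and in WT 527, 299 and 271 in leaves and 175, 279 and 221 in roots. For both genes the root signals of the genotypes overlapped and the leaf signals did not. Within WT the leaf and root signals of XTH15 overlapped, so it marked no organ there. ADS1 (AT1G06080), a fatty acid desaturase, went the other way, at 167, 144 and 142 in mutant leaves and 74.7, 72.4 and 68.3 in mutant roots, against 38.9, 46.9 and 40.7 in WT leaves and 73.8, 62.9 and 72.3 in WT roots.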

How the data were processed

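Arrays were grouped by their titles. Scans were summarised by the authors, per the file headers, into a linear signal intensity and a detection call per probe set with MAS5 in GCOS, and each array was scaled. The tools' versions are not given in the sources. The 2% trimmed mean was 100.0 on all 12 arrays. The deposited intensities were used without further normalization, and 64 control probe sets were left out. A second deposited table of signals differed by more than 0.051 in 26560 of 272952 values, by at most 18.8, and was an alternative.

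A constant of 16 was added before log2. The test was limma 3.58.1 (R 4.3.3, eBayes with trend), with 4 group means fitted to the 12 arrays together. Benjamini-Hochberg adjustment ran over 22746 probe sets, and calls needed an adjusted p under 0.05. SE is that of the fit. The procedure was tested on simulated data with 22746 probe sets and normally distributed noise. Only a small share of probe sets was changed there, all of them brighter than the median. The procedure recovered 34 of 50 differences of 1 and 49 of 50 differences of 2 on the log2 scale. Far more probe sets were called in the real comparison, so recovery there can differ, and dim probe sets were not simulated as changed.

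Of the probe sets, 21643 name 1 locus, 1098 several and 5 none. Only the first kind names genes here. The TAIR10.1 gene table held 21376 of them and gave their symbols, and a gene without a symbol is named by its locus. No coordinates are printed, because the files name no build. A gene with several probe sets (218 of 21420) was represented by the brightest over all arrays, and none had calls in opposite directions. Near-identical genes may share probes.

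The rule for named genes took PDX1.3 and, for each organ, the 15 largest called differences. These needed 1 locus, organs without overlap and presence on all 3 arrays of the higher organ. To these came the 8 largest lower bounds in each direction, the 4 largest called members of each list, members against their list's majority, all members of the vitamin B6, isoform and reference lists, and the 5 smallest p of the interaction in each direction. Members, lists and comparisons were chosen with earlier results of these data known, so lists are described by counts and medians without a test. List and family members outside the rule were chosen after their values were seen. Myrosinase genes, listed as markers, have no probe set of their own here.

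Alternatives were quantile normalization, centring on the median, constants of 1 and 64, a filter on present calls, the other table, the 6 mutant arrays alone, other variance models, a replicate block, an adjusted p under 0.01 and the omission of each array. The omission of WT arrays was added after the data were seen.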

Additional observations from a re-analysis of the deposited data

Results flagged for a closer look

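For 21 of the genes taken by the rule for named genes, the leaf minus root difference itself differed between pdx1.3 and WT. The test was that of limma for the interaction (the difference in the mutant minus that in WT, adjusted p under 0.05). Members outside the rule, such as CYP705A12, CYP71A16 and LHCB4.3, also had a called interaction and are not among the 21.

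The interaction was negative where roots were more favoured in the mutant. It was -4.41 for MRN1, -3.83 for AT5G04120, -3.60 for XTH15, -3.30 for MIOX2, -3.21 for ARD3, -2.43 for PDX1.3 and -2.34 for CRK30, a receptor-like kinase gene. It was -2.27 for HB1, -1.83 for FTM1, -1.69 for AIR1, -1.60 for THAS1, -1.33 for THAD, -1.23 for AT4G22212 and -0.83 for THAH. ARD3, an acireductone dioxygenase gene of methionine salvage, gave 13.8, 9.73 and 9.05 in mutant leaves and 805, 1000 and 619 in mutant roots, with an organ difference of -4.92 in the mutant and -1.71 in WT.

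The interaction was positive where leaves were more favoured in the mutant. It was 2.34 for AT1G52000, annotated as a jacalin lectin, 2.19 for MYB47, 1.90 for AT1G09500, 1.80 for BGLU18, 1.49 for ADS1 (AT1G06080), 1.06 for NRT1.5 and 0.77 for NIG1. MYB47 gave 120, 156 and 161 in mutant leaves and was absent on all mutant root arrays, with an organ difference of 2.75 in the mutant and 0.56 in WT.

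The call of the interaction was lost in at least 1 alternative for NRT1.5 (highest adjusted p = 0.106), THAH (0.223), FTM1 (0.105), HB1 (0.104), AT4G22212 (0.098), THAS1 (0.731), THAD (0.945), BGLU18 (0.101), MYB47 (0.222) and AT1G09500 (0.0601). That of AIR1 (limma adjusted p = 0.0124) was lost where an adjusted p under 0.01 was needed.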

How the results depend on the processing

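When single arrays were left out, the calls for leaves ranged from 4664 to 5246 and for roots from 6629 to 7635, those of at least 2-fold from 2844 to 2926 and from 3462 to 3568. Probe sets present in all leaf and absent in all root arrays ranged from 557 to 689, and the reverse from 1392 to 1511. Leaving out an array loosens this requirement, so these counts cannot fall below the main 526 and 1333. The interaction ranged from 137 to 554. It fell by over 1.5 times without pdx1.3 leaves 2 (265) or 3 (273), pdx1.3 roots 1 (178) or 2 (195), WT leaves 2 (272) and WT roots 2 (137) or 3 (237). It numbered 248 with a constant of 1 and 90 at an adjusted p under 0.01. With a constant of 64, 1963 probe sets were at least 2-fold higher in leaves and 1895 in roots, the reverse of the main order.

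The deviations of same-numbered mutant leaf and root arrays from their group means correlated at 0.163, -0.173 and 0.348. Those of differently numbered mutant arrays correlated at -0.37 to 0.309. With 3 arrays per group these values cannot decide whether replicate numbers pair leaves with roots. A fit with a replicate block called 5007 probe sets for leaves, 7350 for roots and 338 for the interaction.

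Signs of organ differences turned for genes that were not called. SAND had 0.012 after quantile normalization and 0.11 after centring, and -0.131 to 0.117 when single arrays were left out. NIA1 had 0.11 after centring and -0.197 to 0.247 when single arrays were left out. ACT2 had 0.01 after centring. With single arrays left out, PP2AA3 ranged from -0.144 to 0.144 and AHA1 from -0.304 to 0.005. The interaction of THAH, called at -0.83 in the main fit, also changed sign and was 1.102 with a constant of 1. The causes were not tested. Organ differences of named genes kept direction and call in 3869 cases and lost the call in 44, among them YLS8, PTB1 and CRA1.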

Other observations

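Along the chromosomes, runs of at least 4 neighbouring measured genes that were called at least 4-fold in the same organ occurred 3 times in the mutant. In leaves, BBX18, FBA1, AT2G21340 and XK-1 formed a run with log2 differences from 2.46 to 7.29, and PPDK, AT4G15545, IAGLU and CLA1 a run from 2.16 to 4.12. In roots, AT5G47980, THAD, THAH and THAS1, the thalianol cluster, formed a run from -5.69 to -2.79. These runs are a description of gene order and were not tested.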
